A study of Mus musculus with 2 samples.

Results

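The block described here is a stretch of mouse chromosome 7 in the mm9 build that is crowded with regions in which an H3K4me3 immunoprecipitation gave more tags from Mll-PTD cells than from wild-type (WT) cells. Its members were all listed regions on chromosome 7 with a start from 21 Mb up to 24 Mb, and there were 486 of them among 41561 regions in the deposited list. The window was chosen because regions crowd in it, so counts, tag levels and ratios inside it are descriptions of this list and carry no test. The working name of the block is a vomeronasal receptor cluster. No gene positions of the mm9 build were used here, so that name was not checked against the regions and the block is called by its position.

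Chromatin was immunoprecipitated with an antibody to trimethylated lysine 4 of histone H3 (Abcam ab8580) and sequenced. The cells were bone marrow LSK cells of C57BL/6 mice, a marrow fraction without lineage markers and with Sca1 and KIT that contains the stem and progenitor cells of blood. They were enriched on magnetic beads for CD117 (KIT) and then for Sca1. One library came from WT mice and 1 from heterozygous Mll-PTD knock-in mice, which carry a partial tandem duplication in 1 copy of Mll. Cells other than LSK cells may remain after bead enrichment, and the age and number of mice behind each library are not given in the sources used here. Depth was 58083118 tags for Mll-PTD and, by the authors' scaling, 43579199 for WT. With 1 library per genotype there is no replicate, so each value describes these 2 libraries. Intervals are at 95%, and none covers variation between mice. Those of tag ratios are exact (Clopper-Pearson) and cover counting error only. Those of shares (Clopper-Pearson) and of medians are taken over regions. They treat regions as independent draws, which neighbours on a chromosome may not be.

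H3K4me3 marks the starts of active and poised genes, most strongly where the DNA is rich in CpG, and it is written by the SET1 and MLL family of methyltransferase complexes. Mll, now named Kmt2a, encodes one of these enzymes, and the partial tandem duplication is a lesion known from acute myeloid leukaemia. Vomeronasal type 1 receptors (the Vmn1r genes) are pheromone receptors of sensory neurons in the vomeronasal organ. They lie in tandem arrays of related copies, many of them on mouse chromosome 7, and are known chiefly from that organ.

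The regions of the block lay close together along its whole length. The 486 regions took 16.0% of the 3039 regions on chromosome 7, in a window that made up 2.01% of the span between the first and last listed region of that chromosome. The first Mb held 156 regions, the second 162 and the third 168, and they ranked 10, 8 and 7 among the 2581 1-Mb bins of the autosomes, X and Y that held a region. The other 141 Mb bins of chromosome 7 with a region had a median of 14 and a maximum of 86. Regions covered 14.1% of the 2994195 bases from the first to the last of them. The median distance from the end of one region to the start of the next was 3294 bases (quartiles 1570 and 6654), against 18920 bases in the rest of chromosome 7. Of 485 such distances, 75 were under 1000 bases and 11 reached 20000 bases. The widest stretch with no region ran from 21358666 to 21418571, a distance of 59905 bases, followed by 55674 bases from 22399857 to 22455531. Counted per 100 kb, the block held 8 to 23 regions with a median of 17, so no 100-kb bin of it was empty.

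**Figure D1:**
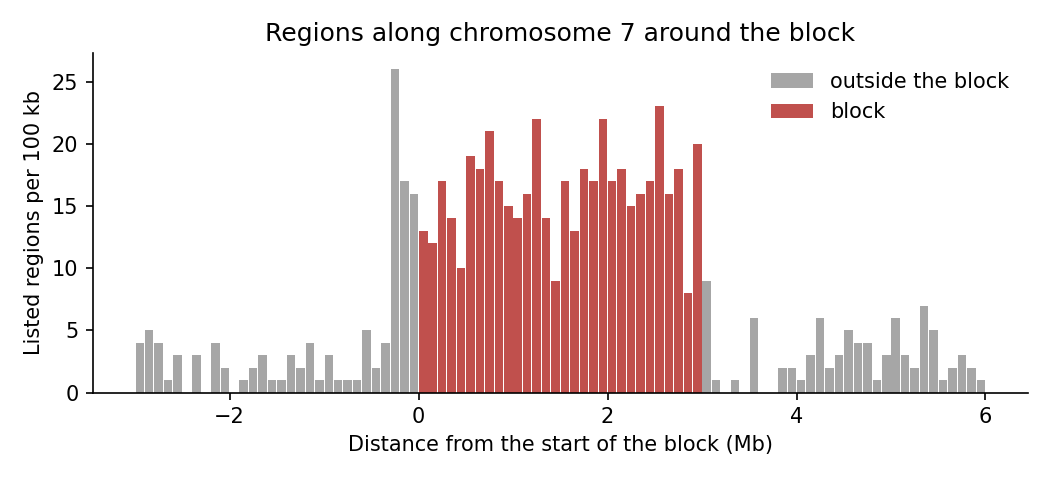
Listed regions per 100 kb (vertical axis) against the distance in Mb from the start of the block (horizontal axis); red bars are bins inside the block and grey bars are bins of chromosome 7 outside it. Bins of the block hold 8 to 23 regions, and the crowding begins 3 bins below the chosen start and ends about 1 bin above the chosen end.

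The crowding ran past the lower limit of the window. The 100-kb bin from 20600000 held 4 regions, and the next 3 bins held 26, 17 and 16. Above the window, the bin from 24000000 held 9 regions and the one after it 1. Over the next 2.7 Mb below and 2.9 Mb above these edges, bins held a median of 2 regions, with at most 5 below and 7 above. The 4 regions next to the limits had 500 to 895 bases. The last region below the start, from 20992631 to 20993329, had 33 Mll-PTD tags after scaling to the WT library against 4 WT tags, and the first inside, from 21003651 to 21004151, had 21 against 1. At the upper limit, the last region inside, from 23997346 to 23997846, had 21 scaled tags against 4, and the first outside, from 24002310 to 24003205, had 45 against 5.

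Single regions held few tags in either library. Scaled Mll-PTD tags ran from 19.5 to 213.1 per region with a median of 30.8 (quartiles 24.8 and 45.6). WT tags ran from 0 to 29 with a median of 4 (quartiles 2 and 6), and the most frequent number was 4, in 69 regions. The 486 regions together held 20540.3 scaled Mll-PTD tags against 2247 WT tags. The ratio of these sums was 9.14 (8.75 to 9.54), against 7.86 (7.74 to 7.99) in the rest of chromosome 7 and 7.74 (7.71 to 7.78) in all other autosomal regions. The ratios are bounded from below, because the list admits a region only where Mll-PTD exceeds WT 4-fold, and the lowest in the block was at that limit.

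Summed over regions, both libraries stood lower per kb in the block than in other autosomal regions. The regions of the block held 48.8 scaled Mll-PTD tags and 5.33 WT tags per kb, and the other autosomal regions held 57.2 and 7.39. Medians over regions lay closer, at 49.2 against 49.6 scaled Mll-PTD tags per kb and 5.57 against 6.37 WT tags. An even spread of the WT library over the caller's genome size would put 21.8 tags on each kb. WT tags in the block stood at 0.245 times that level and Mll-PTD tags at 2.24 times. The caller's limits set part of both values, since WT must lie at least 4-fold below Mll-PTD in every region and the headers give a threshold of 30 tags for calling a peak. The deposited tags per region were not held to that threshold, and 32 regions of the block had fewer than 30 unscaled Mll-PTD tags, down to 26.

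**Figure D2:**
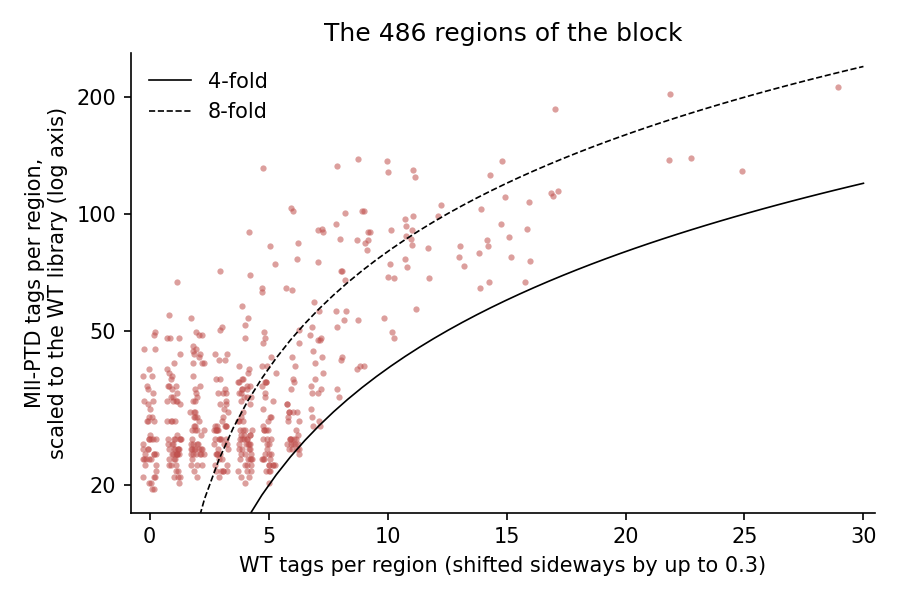
Each point is 1 of the 486 regions, with WT tags on the horizontal axis (shifted sideways at random by up to 0.3 to separate points) and scaled Mll-PTD tags on the vertical log axis; the lines mark 4-fold and 8-fold. Most points lie at 0 to 6 WT tags and 20 to 50 Mll-PTD tags, and none lies below the 4-fold limit of the list.

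Over all 486 regions the median ratio was 8.70 (quartiles 6.30 and 13.1) with regions that had no WT tag set at 3 WT tags, and 7.50 in the rest of chromosome 7. In the 438 regions with a WT tag it was 8.63 (6.00 and 13.9), against 6.77 in other autosomal regions. A ratio of 8 or more was reached by 277 regions (57.0%, 52.5% to 61.5%), where 43.3% of the whole list reached it. The authors' deposited table, which puts 0.5 in place of 0 WT tags, gives 292 regions at 8-fold or more. The window was chosen from this same contrast, so nothing is read from the gap between these shares. The median log2 ratio was 2.94 when 1 was added to both tag counts, and the exact binomial interval of that median over regions ran from 2.85 to 3.06. It was 2.73 in the rest of chromosome 7, a difference of 0.21.

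No WT tag was found in 48 of the 486 regions. Their share was 9.88% (7.37% to 12.9%), where 13.5% of the whole list had none. In the rest of chromosome 7 the share was 15.6% (14.2% to 17.1%). The higher ratio of the block was therefore not accompanied by more regions without WT tags. A further 62 regions held a single WT tag, 58 held 2 and 54 held 3.

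The ratio was above 6-fold in every 100-kb bin of the block. Summed within 100-kb bins it ran from 6.996 to 12.0 with a median of 9.05, and the intervals of 29 of the 30 bins held the ratio of the whole block. The exception was the bin from 22500000, at 6.996 (5.47 to 9.07), whose 17 regions held 497.1 scaled Mll-PTD tags against 71 WT tags. The highest bin, from 21400000, held 419.5 scaled tags against 35 WT tags in 10 regions, and its interval of 8.51 to 17.4 was the widest but still held the whole. By Mb, the ratio of summed tags was 9.56 (8.86 to 10.3) in the first, 8.39 (7.79 to 9.05) in the second and 9.48 (8.81 to 10.2) in the third. The second Mb was the lowest, with an interval that lay below the ratio of the whole block and overlapped those of the other two. Its regions were also the shortest with a median of 500 bases against 633 and 629.5, and 47.5% of them reached 8-fold against 59.6% and 63.7%. Regions without a WT tag numbered 16 in each Mb. Of single regions, 469 had an interval that held the ratio of the whole block, 5 had one that lay below it and 12 had one that lay above it. With a median of 4 WT tags per region and a list that starts at 4-fold, most such intervals are wide enough to hold it. These counts therefore cannot show whether the ratio was even from region to region.

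**Figure D3:**
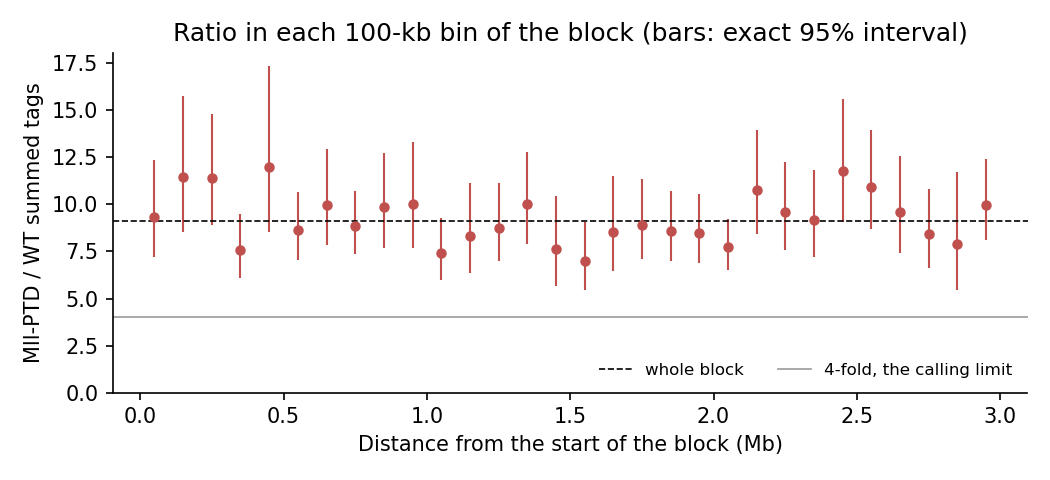
Ratio of summed scaled Mll-PTD tags to summed WT tags (vertical axis) in each of the 30 100-kb bins of the block, by distance in Mb from its start; bars are exact 95% intervals, the dashed line is the ratio of the whole block and the grey line the 4-fold limit. Of the 30 intervals, 29 cross the dashed line at 9.14.

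Regions of the block were longer than those of the rest of the list. Their median length was 629 bases (quartiles 500 and 894), against 500 bases in other autosomal regions, and 229 of them (47.1%, 42.6% to 51.7%) had the minimum of 500 bases, against 56.9%. Longer than 1000 bases were 110 (22.6%, 19.0% to 26.6%), against 17.8%. A length of 3000 bases was reached by 8 (1.65%, 0.713% to 3.22%), against 2.45%, a share inside that interval. The longest region had 4724 bases, where the rest of chromosome 7 held one of 45585.

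Set against regions of the same length class, the block had lower medians of both libraries in every class above 500 bases. WT medians were 17.2% to 40.2% lower and Mll-PTD medians 1.77% to 7.63% lower. In regions of 500 bases the median was 49.6 scaled Mll-PTD tags and 6.00 WT tags per kb, in the block and in other autosomal regions alike. WT tags are whole numbers, so medians over regions of one length move only in steps and can hide a difference. The ratio of summed tags in regions of 500 bases was 8.49 (7.85 to 9.20) in the block, against 7.69 (7.63 to 7.75) in other autosomal regions. In regions of 501 to 750 bases the WT median was 4.68 per kb in the block and 6.29 elsewhere, with 49.9 and 50.8 scaled Mll-PTD tags. The widest gap was in the 61 regions of 751 to 1000 bases, where WT stood at 3.84 against 6.43 and Mll-PTD at 48.4 against 52.4. Regions of that length had the highest ratio in the block, with 11.7 from summed tags (10.2 to 13.4) against 8.43 (8.31 to 8.54). In the 71 regions longer than 1500 bases, WT stood at 5.49 against 6.70 per kb and Mll-PTD at 45.9 against 49.6, and the ratio of summed tags was 8.69 (8.09 to 9.34) against 7.27 (7.21 to 7.32). Weighting other autosomal regions to the block's mix of these length classes gave them a median log2 ratio of 2.70. The block thus stood 0.24 higher with length class matched. The class above 1500 bases has no upper limit, so lengths within it were not matched. None of the 71 regions longer than 1500 bases lacked WT tags, and the exact interval of that share reached up to 5.06%.

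**Figure D4:**
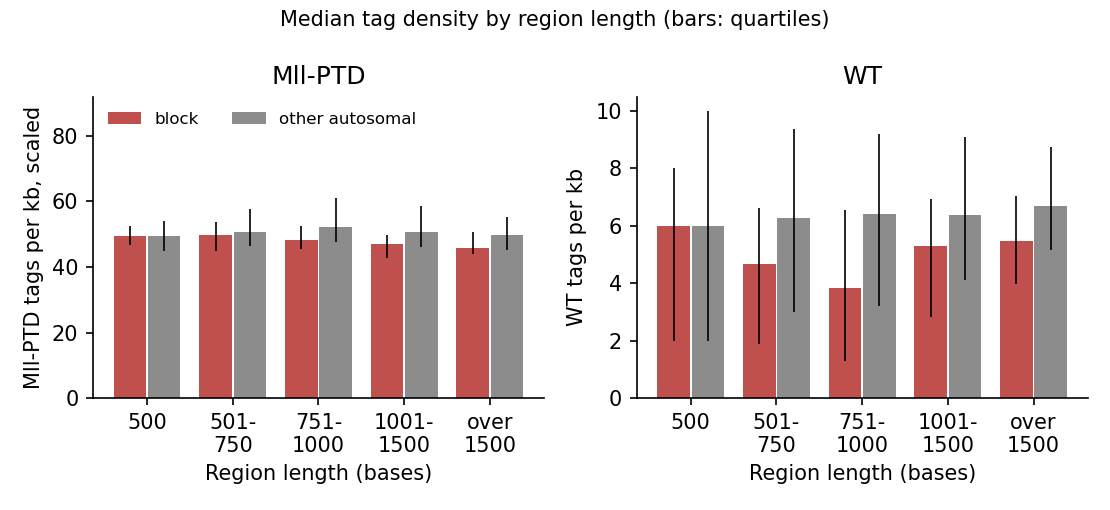
Median tags per kb (vertical axes; Mll-PTD scaled to the WT library on the left, WT on the right) by region length in bases, in the block (red) and in other autosomal regions (grey); thin lines are quartiles over regions. Mll-PTD densities differ little between red and grey, and WT densities are lower in the block in every class above 500 bases.

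The block held no tall peaks. The score that the authors' caller gave to the tallest peak of a region has 30 as its lowest value, which equals the caller's tag threshold. In the block it ran from 30 to 54 with a median of 33, and 65 regions (13.4%, 10.5% to 16.7%) scored 40 or more, where 17.7% of the whole list did. Other autosomal regions, weighted to the block's length classes, reached 40 in 19.5% of cases. Their highest score was 1016, and 1257 of them exceeded the block's highest. No region of the block reached 60, a share whose exact interval reached up to 0.756%, while 2.37% of other autosomal regions did. In the rest of chromosome 7, 70 regions scored above 54, up to 168. The clonal fold, the caller's measure of tags piled on the same positions, exceeded 1 in 1 region of the block, where 3.46% of the whole list did, and its median was 0.73 in both.

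**Figure D5:**
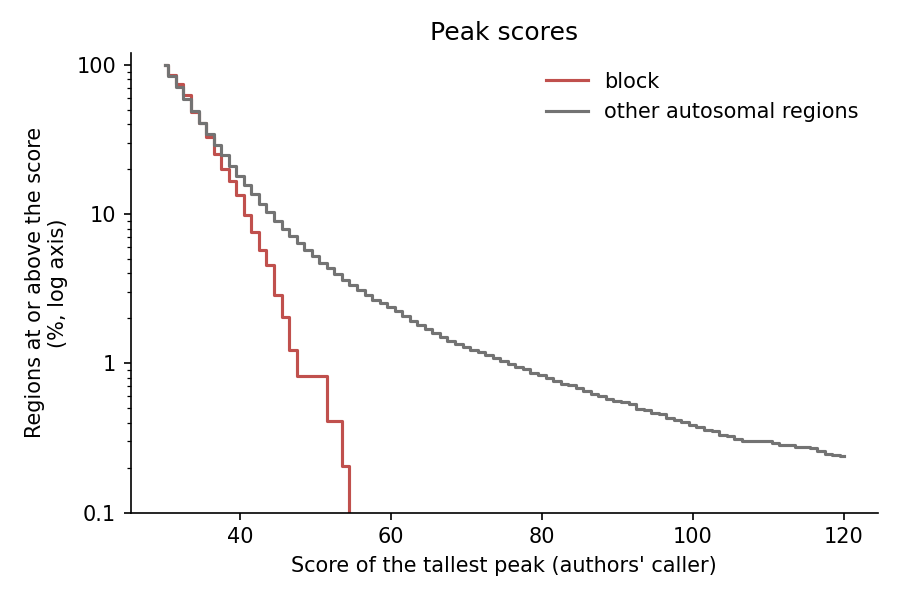
Percentage of regions (vertical log axis) whose tallest peak scored at least the value on the horizontal axis, in the block (red) and in other autosomal regions (grey). The curves run together up to a score of about 37, after which the block falls faster and ends at 54.

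The regions with the most tags were among the longest. The first, from 22030855 to 22035579, held 213.1 scaled Mll-PTD tags against 29 WT tags, a ratio of 7.35 (5.01 to 11.2), and was also the longest. Next came the region from 23097882 to 23101256, with 203.3 against 22 tags and a ratio of 9.24 (5.98 to 15.0). The third, from 21780589 to 21783887, held 186.1 against 17, a ratio of 11.0 (6.70 to 19.1). Per kb these first 3 regions held 45.1 to 60.3 scaled tags of Mll-PTD, where the block's median was 49.2, and their high tag numbers went with their length.

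The next 3 regions by number of Mll-PTD tags, each of more than 3000 bases, held similar Mll-PTD tags and different WT tags. From 23071426 to 23074494 there were 139.6 scaled Mll-PTD tags against 23 WT tags, a ratio of 6.07 (3.92 to 9.81). From 21220468 to 21223634 there were 138.8 against 9, a ratio of 15.4 (7.95 to 34.3). From 21176094 to 21179530, in the second longest region, there were 138.1 against 22, a ratio of 6.28 (4.02 to 10.3). The intervals of these 3 regions overlap, and overlap alone does not decide whether their ratios differ, which was not tested.

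Among regions with at least the median number of tags, the 6 with the highest log2 ratio at a pseudocount of 1 all had no WT tag. The order depends on that measure, since the plain ratio puts regions with a single WT tag first. Chosen after these values were seen, the region from 22905803 to 22906890 had 66.8 scaled Mll-PTD tags against 1 WT tag, with a ratio of 66.8 and an interval of 11.7 to 2667. For each of the 6 the fold is the least that 3 WT tags, taken as the limit of detection, would allow. The region from 23966906 to 23967952 held 49.5 scaled Mll-PTD tags and was at least 16.5-fold higher in Mll-PTD. From 23120722 to 23121698 there were 48.8 scaled tags, at least 16.3-fold higher. Regions from 21418571 to 21419518 and from 22254189 to 22255095 held 45 scaled tags each and were at least 15-fold higher. The other two, from 21265810 to 21266651 and from 22835698 to 22836435, were at least 13.3-fold and 12.8-fold higher. The region from 23580561 to 23581366 tied with the last, with 38.3 scaled tags against 0, and came after it by position. The 6 lay in all 3 Mb of the block, were 737 to 1046 bases long and had peak scores of 32 to 36. Exact intervals, which count the error of both libraries, had lower limits from 10 to 13.1, each below the fold given for its region.

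At the other end, the 3 regions with the lowest log2 ratio among those with at least the median number of tags lay just above the limit of the list. From 22694833 to 22695552 there were 33.8 scaled Mll-PTD tags against 8 WT tags, a ratio of 4.22 (1.97 to 10.4). From 23700408 to 23701819 there were 66.8 against 16, a ratio of 4.17 (2.43 to 7.62), and from 22571090 to 22571590 there were 35.3 against 8, a ratio of 4.41 (2.06 to 10.8). Their intervals reach below 4, so at this depth they could lie on either side of the limit. In all, 10 regions of the block with a WT tag had a ratio under 4.2, and 54 regions had one under 5.

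The regions with the 3 highest peak scores had ratios below the block's median. Over the 65 regions that scored 40 or more, the median log2 ratio was 3.06 against 2.94 over the block, and 67.7% of them reached 8-fold against 57.0%. The highest score, 54, was in the region from 21534120 to 21534620, with 42 scaled Mll-PTD tags against 8 WT tags in 500 bases and a ratio of 5.25 (2.49 to 12.8). The next, 53, was in the region from 23794290 to 23794915, with 42.8 against 7 tags and a ratio of 6.11 (2.78 to 15.9). Both were dense in both libraries, with 84 and 68.5 scaled tags per kb in Mll-PTD and 16 and 11.2 in WT. The third was the longest region of the block, described above, with a score of 51, which the region from 22571090 to 22571590 shares.

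Crowded stretches on chromosomes 14 and 5 had tag densities and lengths near those of the block. The 546 regions on chromosome 14 from 42 to 45 Mb had a ratio of summed tags of 8.67 (8.36 to 9.0), and the 323 on chromosome 5 from 94 to 96 Mb had 9.56 (9.06 to 10.1). WT stood at 5.82 and 5.20 tags per kb there, against 5.33 in the block, and Mll-PTD at 50.5 and 49.7 scaled tags, against 48.8. Median lengths were 636 and 638 bases. Peak scores ended at 56 and 55, and neither stretch held a region that reached 60. A score of 40 or more was reached by 22.7% (19.3% to 26.5%) of the regions on chromosome 14, where the interval lies above that of the block, and by 11.1% (7.93% to 15.1%) on chromosome 5. The share of regions without a WT tag was 18.1% (15.0% to 21.6%) and 18.6% (14.5% to 23.3%), against 9.88% in the block, and these intervals do not overlap that of the block. Those intervals treat regions as independent draws, which neighbours on a chromosome may not be, and no test was made because all 3 stretches were chosen from the same contrast.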

How the data were processed

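H3K4me3 immunoprecipitation libraries of LSK cells, 1 from WT and 1 from Mll-PTD mice, were grouped by genotype from the labels. Reads were handled with Bowtie 0.12.7 and HOMER 4.7 on the mm9 build, per the submitters' processing notes. Per the file headers, HOMER called regions from the Mll-PTD library in its histone mode, with WT in place of an input, joining peaks of 500 bases at a false discovery rate of 0.001, and asked for a 4-fold excess and a Poisson p-value no higher than 0.0001. No region higher in WT can be listed, and no input library was used here.

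The signal columns the authors deposited hold Mll-PTD tags per 10000000, the same scaled to WT depth, and unscaled WT tags, with 0.5 for none, which was read as 0. The authors also deposited a ratio (fold) and a p-value for each region and 2 scores, of the tallest peak and of clonality; the p-value is no test between genotypes and reached at most 3.45e-07 in the block. Scaled tags divided by 0.750 came out whole (within 0.1) in 100% of regions and entered the intervals in that form. The factor came from the 11 regions with at least 500 tags per 10000000.

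Ratios are scaled Mll-PTD over WT tags, and log2 ratios carry a pseudocount of 1. No region was filtered out. The interval code was checked on simulated Poisson tags drawn without the list's 4-fold limit. That check does not show how well intervals hold in regions selected by the limit. Named regions follow a rule: among regions with at least the block's median tags, the 6 highest and 3 lowest log2 ratios; over all regions, the 6 with most tags, the 4 longest and the 3 highest scores, which gave 17 distinct regions. Members and rules were chosen with earlier results of these data known. The reference tables used are of GRCm38, another build, so no region was assigned to a gene or given a sequence. Calculations used Python 3.11.15 with scipy 1.17.1, pandas 2.3.3 and numpy 2.4.6, and plots matplotlib 3.10.9.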

Additional observations from a re-analysis of the deposited data

How the results depend on the processing

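The 7 results of the block were recomputed under 68 alternative values. Of these, 47 stayed within the main value's interval (for the number of regions, within 1.5 times), 19 moved outside it and 2 changed sign. Some outcomes were set by the alternative itself, so these counts do not measure robustness. Merging regions cannot change the ratio of summed tags. Leaving out 1 of the 3 Mb puts the number of regions near the 1.5-fold limit, with 330 and 324 inside it and 318 outside. The 486 regions became 272 with at least the list's median of 29.3 tags, 292 at a deposited fold of 8, 318 without the third Mb and 65 at a peak score of 40. The median log2 ratio, 2.94, moved to 2.20 (pseudocount 5), 3.08 (pseudocount 0.5) and 3.49 (fold of 8). The ratio of summed tags, 9.14, became 14.4 at a fold of 8 and 8.53 where WT had a tag. The share without a WT tag, 9.88%, became 6.99% with at least the median tags, 16.4% at a fold of 8 and 4.62% at a score of 40. The share at 8-fold, 57.0%, became 63.6% with at least the median tags, 61.7% without the second Mb and 67.7% at a score of 40. The difference from the rest of chromosome 7, 0.21, fell to 0.093 with a pseudocount of 5, rose to 0.34 at a score of 40 and changed sign to -0.090 at a fold of 8. The difference with length class matched, 0.24, became 0.086, 0.40 and -0.017 under the same alternatives. A higher fold limit removes the lower part of both distributions by construction. Leaving out other crowded bins, chosen after seeing the data, gave 0.25. For the 17 named regions, 2 other pseudocounts, also added later, left 28 of 34 log2 ratios within their intervals; the 6 outside were the regions with no WT tag at a pseudocount of 5. No paired analysis was possible because there is 1 library of each genotype. Depth limits the ratios of single regions, with a median of 4 WT tags.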

Other observations

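The Vmn1r family that gives the block its working name is strongly clustered on chromosome 7. In RefSeq's annotation of GRCm38.p6, 176 of 373 entries with a Vmn1r symbol (47.2%) lie on that chromosome, 126 of them protein-coding and 50 pseudogenes, and 154 of the 176 have another Vmn1r entry as a direct neighbour. These names come from another build than the regions, and which of them fall in the block was not analysed here. Promoters of 300 bases were at hand for 115 of these genes. Their median number of CG pairs was 2 (quartiles 1 and 3) and the highest was 4, while all 32851 promoters of the same table had a median of 7 (3 and 20). At least 1 CG pair was present in 88.7% of them and in 94.6% of all promoters, and 10 or more in 0% and 43.5%. CG reads the same on both strands and was the only motif searched. G and C made up a median of 36.3% of the bases of these promoters, against 52.7% of all.

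The Mb below and the Mb above the block had lower ratios of summed tags than the block's 9.14. The interval lay below that value in the Mb below and held it in the Mb above. From 20 to 21 Mb, 76 regions held 3466.9 scaled Mll-PTD tags against 423 WT tags, a ratio of 8.20 (7.42 to 9.07), and 65 of them lay in the upper 500 kb. From 24 to 25 Mb, 21 regions held 942.5 against 114 tags, a ratio of 8.27 (6.82 to 10.1). No WT tag was found in 5 of the 76 and in 1 of the 21.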
